A study of Mus musculus with 15 samples.

Results

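The genes described here build the mucus of the colon or are known products of its goblet cells. They were given as 10 symbols, Muc2, Fcgbp, Clca1, Zg16, Tff3, Agr2, Spink4, Muc3, Muc13 and Muc4. Of the 32939 genes in the count table, 9 carried those symbols, each in 1 row. No row matched Muc4, which was not analysed here. RNA came from colonic crypts of wild-type mice in 3 groups of 5 libraries. FL-shAlpl mice had a fatty liver on the CDAA diet (a choline-deficient, amino acid-defined feed) and received AAV-shAlpl, an adeno-associated virus carrying a short hairpin RNA against the alkaline phosphatase gene Alpl. FL-shGFP mice had the CDAA diet and fatty liver with AAV-shGFP, the control hairpin. NL-shGFP mice had a normal diet and a normal liver with AAV-shGFP. All 3 groups thus carried a vector, diet and liver state changed together, and no normal-liver group received AAV-shAlpl. The labels gave neither the tissue the vector reached nor the sex, age or batch of the mice, and did not say that replicates were separate animals, so the p-values may measure only the spread between these samples.

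Library totals ran from 42.1 to 58.6 M counts in FL-shAlpl, 37.5 to 51.7 M in FL-shGFP and 33.3 to 41.4 M in NL-shGFP. The share of mitochondrially encoded counts was 14.8 to 24.3% in FL-shAlpl, 13.7 to 21.5% in FL-shGFP and 28.0 to 37.5% in NL-shGFP, and the counts of members called were the same with those genes left out. Alpl had 6, 2, 2, 2 and 0 counts in FL-shAlpl replicates 1 to 5. The FL-shGFP libraries had 15, 14, 18, 25 and 23 counts of it, and the NL-shGFP libraries had 0, 2, 0, 0 and 0. All 9 of the markers used to check for epithelium (Epcam, Cdh1, Vil1 and others) and all 9 goblet markers outside the members (Spdef, Atoh1, Bcas1 and others) had counts in all 15 libraries. Markers of T and NK cells were also present in all libraries, at a summed 9.42 to 23.7 CPM (counts scaled to library size) in FL-shAlpl, 78.7 to 221.6 in FL-shGFP and 12.7 to 56.0 in NL-shGFP.

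Colonic mucus is a gel of the secreted mucin MUC2, which goblet cells fold in the endoplasmic reticulum, coat with O-linked sugars in the Golgi, pack into granules and release. FCGBP, CLCA1 and ZG16 are released with it and are found in the gel: FCGBP is a large protein with von Willebrand D domains, CLCA1 is a metalloprotease that cleaves MUC2, and ZG16 is a lectin that binds Gram-positive bacteria. TFF3 is a trefoil peptide of epithelial repair, SPINK4 a small Kazal-type peptide of goblet cells, and AGR2 a disulfide isomerase needed for MUC2 assembly. MUC3, MUC13 and MUC4 are transmembrane mucins of the glycocalyx, made by absorptive cells as well as goblet cells.

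The RefSeq promoter table used here (build GRCm38.p6) held windows for 5 of the 9 measured members: Muc2, Fcgbp, Agr2, Muc3 and Muc13. The 250 bases upstream of the gene's start are shown for the 3 genes whose RNA took different courses in the FL-shGFP against NL-shGFP comparison below, Fcgbp (higher), Agr2 (lower) and Muc2 (not past the threshold). They are written 5′ to 3′ on the gene's own strand, which is the plus strand for all 3, at chr7:141690090-141690339 for Muc2, chr7:28070986-28071235 for Fcgbp and chr12:35992675-35992924 for Agr2. Capitals mark CACCC, the core of sites that Klf-type factors bind. They also mark AGATAA, a form of the site that GATA factors bind. Capitals further mark TATAAA, the letters of a TATA box. Each was marked in the reverse complement as well.

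Muc2: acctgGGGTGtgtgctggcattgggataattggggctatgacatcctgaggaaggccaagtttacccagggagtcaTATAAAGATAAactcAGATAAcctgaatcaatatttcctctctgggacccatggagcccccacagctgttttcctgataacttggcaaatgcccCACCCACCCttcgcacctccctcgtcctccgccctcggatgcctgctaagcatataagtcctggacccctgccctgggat
Fcgbp: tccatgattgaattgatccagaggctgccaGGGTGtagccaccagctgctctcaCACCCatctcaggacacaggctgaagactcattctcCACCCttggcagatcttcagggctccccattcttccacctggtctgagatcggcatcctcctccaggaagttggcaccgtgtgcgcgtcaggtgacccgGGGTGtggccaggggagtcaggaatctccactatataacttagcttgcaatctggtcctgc
Agr2: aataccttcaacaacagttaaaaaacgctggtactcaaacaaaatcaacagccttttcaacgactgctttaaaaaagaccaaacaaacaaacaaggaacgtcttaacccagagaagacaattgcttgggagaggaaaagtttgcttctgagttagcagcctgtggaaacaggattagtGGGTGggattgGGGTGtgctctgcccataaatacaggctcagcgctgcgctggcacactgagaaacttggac

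CACCC, read on both strands, occurred 3 times upstream of Muc2, 4 times upstream of Fcgbp, 2 times upstream of Agr2 and 3 times upstream of Muc3. Neither Muc13 window held it. It is a common string, present in 52.0% of all 32851 windows of the same length. The Muc2 window also held AGATAA 2 times, a string in 9.99% of windows. The first of these overlapped the TATA box letters TATAAA, which were in 12.4% of windows. The string CAATAAA, found in 4.2% of all windows, was searched for as well and was in none of the 6 member windows. The same held for TGTTTAC, found in 3.17% of all windows. These matches are descriptions of letters in a window, and the gene with higher RNA and the gene with lower RNA both held CACCC.

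**Figure D1:**
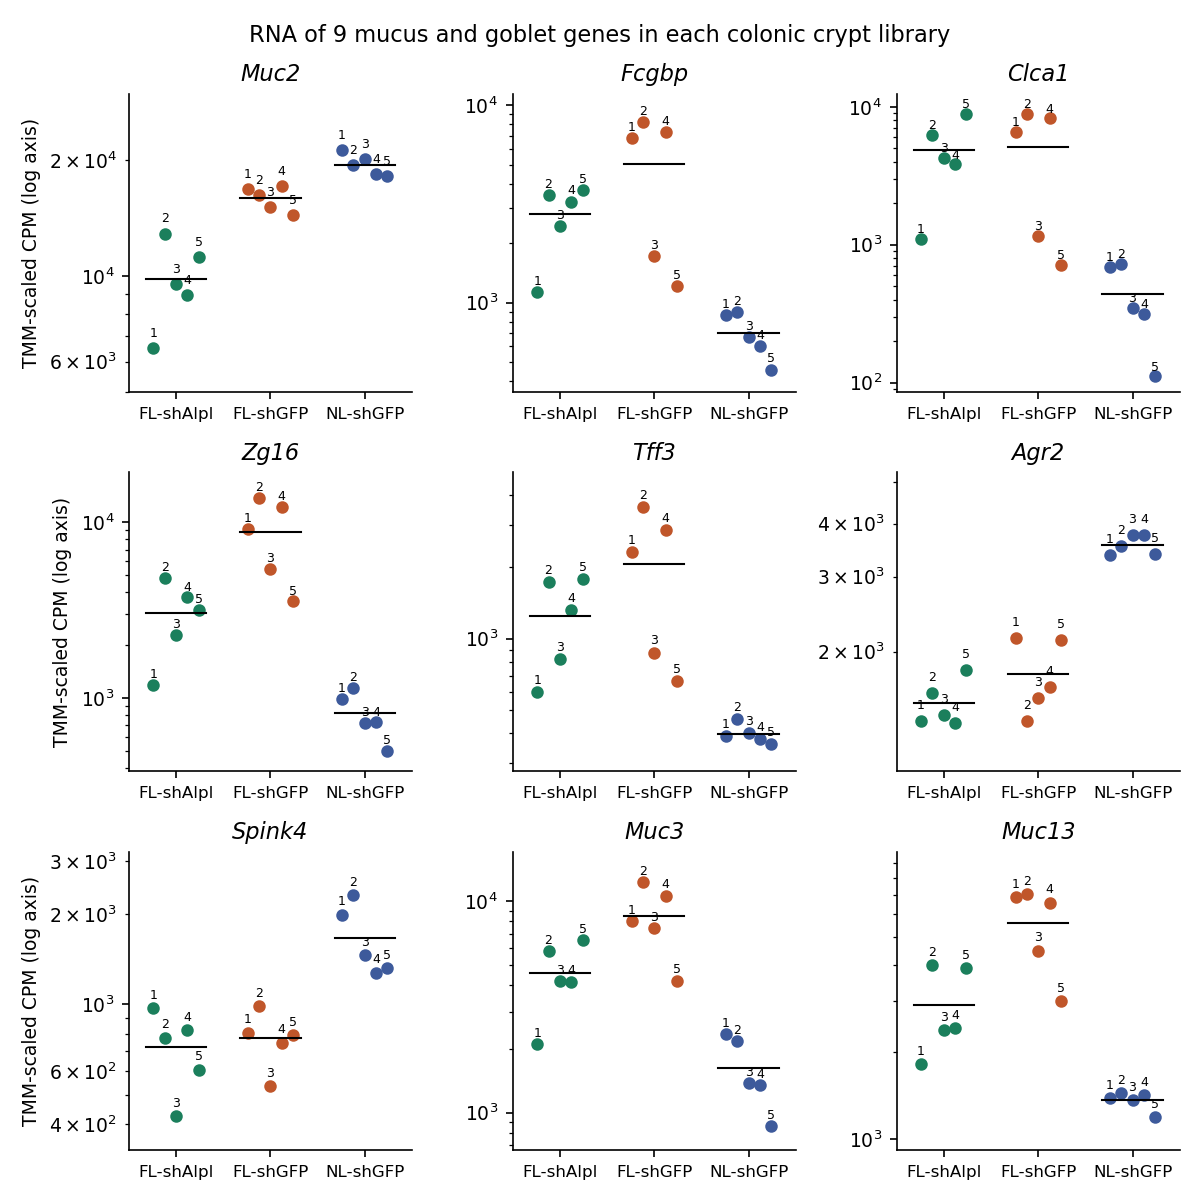
Each panel gives the CPM of 1 gene (TMM-scaled, log axis) in the 15 libraries, with numbered points for replicates and a bar for the group mean. The panels for Fcgbp, Zg16, Tff3, Muc3 and Muc13 have all FL-shGFP points above all NL-shGFP points, while those for Muc2, Agr2 and Spink4 have them all below.

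FL-shGFP and NL-shGFP differed in 8 of the 9 members. RNA of Zg16, Clca1, Fcgbp, Muc3, Tff3 and Muc13 rose, with log2 fold changes from 2.04 to 3.54, and RNA of Agr2 and Spink4 fell by 1.01 and 1.11. Muc2 did not pass the threshold of 0.05 on the Benjamini-Hochberg adjusted p of edgeR's quasi-likelihood test. In this comparison 46.7% of the 17404 genes tested passed, 25.1% as higher and 21.6% as lower. The median log2 fold change of the 9 was 2.37, against -0.00 over all genes tested. In bulk RNA, a change in the number of cells and a change in RNA per cell cannot be told apart, whether a gene rose or fell.

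In FL-shAlpl against FL-shGFP, Zg16, Muc13, Muc3 and Muc2 fell and none of the 9 rose, with a median of -0.72 against -0.00 over all genes. None was called higher by DESeq2 or by limma on log2(FPKM + 1) either, and none was higher at an unadjusted p below 0.05 by edgeR. Of all genes tested, 36% passed here, 18% as higher and 17.9% as lower. In FL-shAlpl against NL-shGFP all 9 passed: the same 6 symbols as above (Zg16, Clca1, Fcgbp, Muc3, Tff3, Muc13) were higher and Muc2, Agr2 and Spink4 were lower, against 17.4% of all genes (9.31% higher, 8.12% lower). With the closely alike NL-shGFP replicates 3 and 4, and 1 and 2, summed, 3 members were higher there in place of 6. FL-shGFP libraries enter both comparisons that name them, as do FL-shAlpl and NL-shGFP libraries, so the results of the 3 comparisons are not independent of each other.

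**Figure D2:**
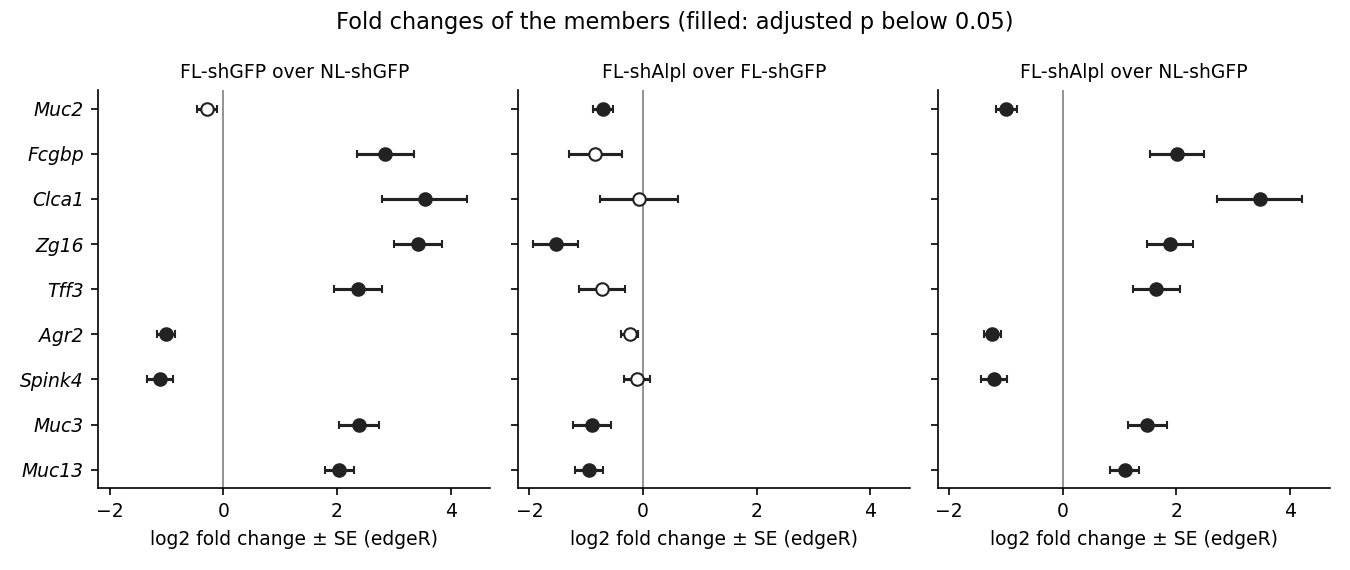
Log2 fold changes with standard errors of the 9 members in the 3 comparisons, from 1 edgeR fit to all 15 libraries. Filled points passed at an adjusted p below 0.05; in the middle panel these are Muc2, Zg16, Muc3 and Muc13, all to the left of 0.

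Muc2, the gel-forming mucin itself, was lowest in FL-shAlpl. It had 6495, 12909, 9520, 8942 and 11242 CPM in FL-shAlpl replicates 1 to 5. It had 16867, 16216, 15153, 17119 and 14397 CPM in FL-shGFP, and 21326, 19487, 20183, 18387 and 18190 in NL-shGFP. No FL-shAlpl library reached any FL-shGFP library, and no FL-shGFP library reached any NL-shGFP library. Its RNA in FL-shAlpl fell by 0.70 ± 0.18 relative to FL-shGFP on the log2 scale (adjusted p = 0.00797 by edgeR, n = 5 each) and by 0.99 ± 0.18 against NL-shGFP (adjusted p = 0.00192 by edgeR). Muc2 was the member with all 5 FL-shAlpl libraries below all 5 FL-shGFP libraries, as were 9.29% of all genes tested. The step between FL-shGFP and NL-shGFP, -0.29 ± 0.18, did not pass (adjusted p = 0.189 by edgeR) although the libraries did not overlap.

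Zg16, the lectin of the gel, had the largest estimate of the 9 members between FL-shAlpl and FL-shGFP. Its CPM were 1190, 4813, 2296, 3737 and 3171 in FL-shAlpl, 9203, 13712, 5452, 12297 and 3558 in FL-shGFP, and 993, 1147, 722, 730 and 500 in NL-shGFP. Every fatty-liver library lay above every NL-shGFP library, and FL-shAlpl and FL-shGFP overlapped through FL-shGFP replicate 5. It rose by 3.43 ± 0.42 in FL-shGFP over NL-shGFP (adjusted p = 3.68e-05 by edgeR), fell by 1.54 ± 0.39 in FL-shAlpl against FL-shGFP (adjusted p = 0.00824 by edgeR), and was 1.89 ± 0.40 above NL-shGFP in FL-shAlpl (adjusted p = 0.00496 by edgeR).

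Clca1, the MUC2-cleaving protease, had the largest standard errors of the 9 members. Its CPM were 1103, 6241, 4282, 3816 and 8914 in FL-shAlpl, 6567, 8874, 1164, 8227 and 710 in FL-shGFP, and 694, 730, 346, 314 and 111 in NL-shGFP. Replicates 3 and 5 of FL-shGFP were far below the other 3, and replicate 5 lay within the NL-shGFP range. Clca1 rose by 3.54 ± 0.75 in FL-shGFP over NL-shGFP (adjusted p = 0.00183 by edgeR) and by 3.47 ± 0.75 in FL-shAlpl over NL-shGFP (adjusted p = 0.00622 by edgeR). Between FL-shAlpl and FL-shGFP the estimate was -0.07 ± 0.68 (adjusted p = 0.948 by edgeR), and its sign changed with the processing.

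Fcgbp was low in the same FL-shGFP libraries as Clca1. It had 1125, 3514, 2436, 3248 and 3732 CPM in FL-shAlpl, 6801, 8185, 1723, 7316 and 1218 in FL-shGFP, and 868, 896, 669, 602 and 458 in NL-shGFP. All fatty-liver libraries were above all NL-shGFP libraries, while FL-shAlpl and FL-shGFP overlapped because FL-shGFP replicates 3 and 5 were low. It rose by 2.85 ± 0.50 in FL-shGFP over NL-shGFP (adjusted p = 0.000482 by edgeR) and by 2.01 ± 0.48 in FL-shAlpl over NL-shGFP (adjusted p = 0.0110 by edgeR). The FL-shAlpl against FL-shGFP value of -0.84 ± 0.47 did not pass (adjusted p = 0.171 by edgeR). Without FL-shGFP replicate 5 it was -1.09 and passed (adjusted p = 0.0416 by edgeR).

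Tff3, the trefoil peptide gene, had 598, 1727, 822, 1319 and 1790 CPM in FL-shAlpl, 2305, 3569, 875, 2862 and 667 in FL-shGFP, and 390, 461, 403, 378 and 361 in NL-shGFP. The NL-shGFP libraries were close together and below all others, and the low FL-shGFP libraries were again replicates 3 and 5. Tff3 rose by 2.37 ± 0.42 in FL-shGFP (adjusted p = 0.000561 by edgeR) and by 1.65 ± 0.41 in FL-shAlpl (adjusted p = 0.0135 by edgeR), each over NL-shGFP. FL-shAlpl differed from FL-shGFP by -0.72 ± 0.41 (adjusted p = 0.179 by edgeR), and without FL-shGFP replicate 5 by -0.94 (adjusted p = 0.0471 by edgeR).

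Spink4 and Agr2 fell in both fatty-liver groups against NL-shGFP. Spink4, the Kazal-type peptide gene, had 971, 774, 426, 819 and 607 CPM in FL-shAlpl, 805, 985, 535, 745 and 792 in FL-shGFP, and 1987, 2302, 1458, 1276 and 1318 in NL-shGFP. Both fatty-liver groups lay wholly below NL-shGFP and overlapped each other throughout. Spink4 fell by 1.11 ± 0.23 in FL-shGFP (adjusted p = 0.0014 by edgeR) and by 1.21 ± 0.23 in FL-shAlpl (adjusted p = 0.00266 by edgeR) against NL-shGFP. The difference between FL-shAlpl and FL-shGFP was -0.10 ± 0.23 (adjusted p = 0.754 by edgeR).

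Agr2 encodes the MUC2 folding enzyme. Its CPM were 1377, 1598, 1421, 1361 and 1813 in FL-shAlpl, 2155, 1375, 1558, 1651 and 2133 in FL-shGFP, and 3368, 3548, 3768, 3763 and 3400 in NL-shGFP. The lowest NL-shGFP library was well above the highest fatty-liver library. Agr2 fell by 1.01 ± 0.15 in FL-shGFP (adjusted p = 0.000113 by edgeR) and by 1.24 ± 0.15 in FL-shAlpl (adjusted p = 0.000114 by edgeR) against NL-shGFP. FL-shAlpl and FL-shGFP overlapped and differed by -0.23 ± 0.15 (adjusted p = 0.233 by edgeR).

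The transmembrane mucin genes Muc3 and Muc13 rose in both fatty-liver groups over NL-shGFP. Muc13 had 1816, 3993, 2378, 2420 and 3903 CPM in FL-shAlpl, 6887, 7060, 4493, 6582 and 3010 in FL-shGFP, and 1388, 1450, 1366, 1420 and 1192 in NL-shGFP. FL-shGFP replicate 5 was the only FL-shGFP library within the FL-shAlpl range, and no fatty-liver library reached down to NL-shGFP. Muc13 rose by 2.04 ± 0.26 in FL-shGFP over NL-shGFP (adjusted p = 4.05e-05 by edgeR), fell by 0.95 ± 0.25 in FL-shAlpl against FL-shGFP (adjusted p = 0.00947 by edgeR) and was 1.09 ± 0.25 above NL-shGFP in FL-shAlpl (adjusted p = 0.00821 by edgeR).

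Muc3 had 2102, 5779, 4170, 4158 and 6521 CPM in FL-shAlpl, 8021, 12216, 7419, 10559 and 4184 in FL-shGFP, and 2341, 2175, 1374, 1347 and 864 in NL-shGFP. FL-shGFP lay above NL-shGFP in all libraries, and FL-shAlpl replicate 1 fell within the NL-shGFP range. It rose by 2.39 ± 0.35 in FL-shGFP (adjusted p = 0.000125 by edgeR) and by 1.49 ± 0.34 in FL-shAlpl (adjusted p = 0.00825 by edgeR) over NL-shGFP. Against FL-shGFP it fell by 0.90 ± 0.34 in FL-shAlpl, barely past the threshold (adjusted p = 0.0490 by edgeR). That call was lost without any single one of FL-shAlpl replicates 1, 3 and 4 or FL-shGFP replicates 1, 2, 3 and 4, at log2 fold changes from -0.94 to -0.71 and adjusted p from 0.0589 to 0.122 by edgeR. Muc3a, a gene with a closely related symbol that was looked up after the values were seen, was far scarcer, at 80.1 ± 12.9 CPM in FL-shAlpl, 194.1 ± 60.8 in FL-shGFP and 172.0 ± 12.1 in NL-shGFP (SD, n = 5 each). Muc3a fell by 1.28 ± 0.18 in FL-shAlpl against FL-shGFP (adjusted p = 0.000249 by edgeR) and differed by 0.17 ± 0.18 between FL-shGFP and NL-shGFP (adjusted p = 0.447 by edgeR). How reads shared by the pair were assigned is not given in the sources used here, so the split between them is uncertain.

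Counted as separation rather than by p, 5 members had all FL-shGFP libraries above all NL-shGFP libraries (18.1% of all genes tested) and 3, Muc2 among them, had them all below (16.2%). For FL-shAlpl against NL-shGFP the counts were 5 above (7.54% of all genes) and 3 below (7.01%), and for FL-shAlpl against FL-shGFP they were 0 above (7.63%) and 1 below.

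Per unit of transcript length, the order of the members changed between groups. In FL-shAlpl, Tff3 (2614 ± 960 FPKM) and Zg16 (2507 ± 1052) came first, followed by Spink4 (1589 ± 494), Clca1 (1320 ± 714), Agr2 (1228 ± 79.8), Muc13 (988.4 ± 268), Muc2 (735.8 ± 146), Muc3 (331.7 ± 106) and Fcgbp (277.7 ± 94.3; SD, n = 5 throughout). In FL-shGFP, Zg16 was first at 6780 ± 2983 FPKM, then Tff3 (3994 ± 2294), Muc13 (1797 ± 475), Spink4 (1601 ± 324), Agr2 (1372 ± 337), Clca1 (1280 ± 949), Muc2 (1133 ± 26.2), Muc3 (581.6 ± 182) and Fcgbp (458.7 ± 286). In both fatty-liver groups the ranges of neighbours overlapped at every step but that between Muc2 and Muc3.

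In NL-shGFP the order began with Spink4 (3356 ± 936 FPKM) and Agr2 (2648 ± 106), which overlapped, and went on with Muc2 (1344 ± 92.9) and Tff3 (774.8 ± 78.1), which were separate from their upper neighbours. Zg16 (621.8 ± 191) overlapped Tff3 and Muc13 (429.4 ± 22.0), and Clca1 (110.5 ± 67.7), Muc3 (109.0 ± 41.4) and Fcgbp (63.6 ± 16.4) formed an overlapping low set below Muc13. Among all genes in a library, Zg16 ranked 12th to 29th by FPKM in FL-shAlpl, 5th to 12th in FL-shGFP and 37th to 70th in NL-shGFP. Against NL-shGFP, Agr2 went the opposite way. Its ranks were 25 to 30 in FL-shAlpl, 19 to 40 in FL-shGFP and 12 to 17 in NL-shGFP, with a median of 27 in both fatty-liver groups. FPKM are scaled by library totals, to which the mitochondrial share given above contributes.

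The make-up of the members' reads differed between diets. Together the 9 genes took 1.86 to 4.08% of all counts in FL-shAlpl, 3.40 to 6.89% in FL-shGFP and 2.58 to 3.18% in NL-shGFP. FL-shGFP lay wholly above NL-shGFP, and FL-shAlpl overlapped both. Muc2 made up 32.2% ± 4.48 of those reads in FL-shAlpl, 32.5% ± 10.3 in FL-shGFP and 65.0% ± 3.13 in NL-shGFP (SD, n = 5 each), with no NL-shGFP library under 60.5% and no fatty-liver library above 46.9%. Long transcripts gather more reads, so these shares describe reads and not molecules. Relative to Muc2 per unit of length, Zg16 stood at 3.32 ± 1.06 in FL-shAlpl, 6.01 ± 2.73 in FL-shGFP and 0.461 ± 0.131 in NL-shGFP. The same ratio for Agr2 was 1.72 ± 0.349 in FL-shAlpl, 1.21 ± 0.276 in FL-shGFP and 1.98 ± 0.180 in NL-shGFP.

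**Figure D3:**
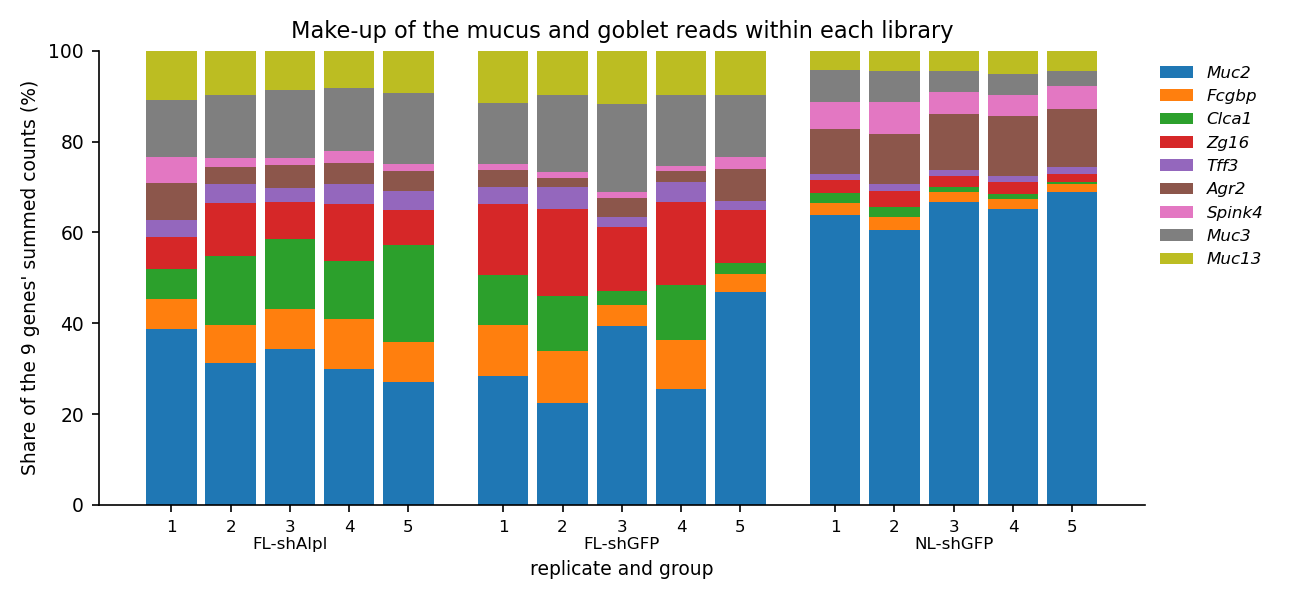
Stacked bars give the share of the 9 genes' summed counts taken by each gene in each library, in percent. Muc2 takes over 60% in all 5 NL-shGFP libraries and under 47% in all others, where Zg16, Clca1, Fcgbp, Muc3 and Muc13 take more.

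Within groups, most members were low in the same libraries. FL-shGFP replicate 5 deviated from its group's mean log2 CPM by -2.22 for Clca1, -1.66 for Fcgbp, -1.34 for Tff3 and -1.15 for Zg16. Replicate 3 of that group deviated by -1.51, -1.16, -0.95 and -0.53 for the same genes. FL-shAlpl replicate 1 was likewise the lowest of its group for Clca1, Fcgbp, Zg16, Tff3, Muc3, Muc13 and Muc2. Spink4 was highest of its group in that FL-shAlpl library, and Agr2 in FL-shGFP replicate 5 was above its group's mean.

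Markers of surface colonocytes, the absorptive cells at the crypt mouth, rose in FL-shGFP over NL-shGFP, as 6 of the 9 members did. They fell in FL-shAlpl against FL-shGFP, as 4 members did. Their summed CPM over 16 markers (Slc26a3, Car4, Aqp8, Krt20 and others, none at 0 in any library) was 6924 to 12113 in FL-shAlpl, 12196 to 31563 in FL-shGFP and 5095 to 11938 in NL-shGFP. It was lowest of the group in FL-shAlpl replicate 1 (6924), FL-shGFP replicate 5 (12196) and NL-shGFP replicate 5 (5095), and second lowest in FL-shGFP replicate 3 (18509). Of the 16 markers, 14 rose and none fell in FL-shGFP over NL-shGFP, with a median of 2.52, and none rose and 13 fell in FL-shAlpl against FL-shGFP, with a median of -1.47. Stem and progenitor markers went the other way, 0 of 10 higher and 10 lower in FL-shGFP over NL-shGFP and 8 higher and 0 lower in FL-shAlpl against FL-shGFP. Over all genes tested, 25.1% rose and 21.6% fell in the first of these comparisons, and 18% and 17.9% in the second. Markers of T and NK cells went the way of the surface colonocyte markers in these comparisons: of 9 tested, 8 rose and 0 fell in FL-shGFP over NL-shGFP (median 2.27), and 0 rose and 9 fell in FL-shAlpl against FL-shGFP (median -3.38). Of 7 myeloid markers, summed at 79.6 to 284.5 CPM in FL-shAlpl, 271.3 to 1010.0 in FL-shGFP and 103.0 to 317.9 in NL-shGFP, 4 rose and 0 fell in FL-shGFP over NL-shGFP, and 0 rose and 4 fell in FL-shAlpl against FL-shGFP. Of 5 B and plasma cell markers tested, summed over 6 at 15.6 to 130.2 CPM in FL-shAlpl, 100.7 to 378.1 in FL-shGFP and 5.89 to 21.2 in NL-shGFP, 3 rose and 0 fell, and then 0 rose and 1 fell, in those comparisons. Smooth muscle (4 markers tested, at most 18.6 CPM summed in any library) had 3 higher and 0 lower, then 0 higher and 3 lower. Endothelium (4 markers, at most 9.74 CPM) had 3 higher and 0 lower, then 0 higher and 1 lower. Fibroblasts (6 markers, at most 336.8 CPM) had 2 higher and 0 lower, then 0 in either direction. No marker of these lists was at 0 in every library. For the counts of 0 in these 8 marker lists, DESeq2, limma on log2(FPKM + 1) and edgeR at an unadjusted p below 0.05 all gave 0 as well. In FL-shAlpl over NL-shGFP, 6 of the 9 members rose and 3 fell. There 0 of the 9 T and NK cell markers rose and 3 fell (median -1.05, 5 lower by DESeq2 and 1 by limma). Of the 16 surface colonocyte markers 5 rose and 1 fell (median 0.73), and of the 7 myeloid markers 0 passed. Fibroblasts and B and plasma cells each had 2 higher and 0 lower, and stem and progenitor markers 0 higher and 3 lower. Of all genes tested, 9.31% rose and 8.12% fell there. The part that these other cells or the mix of crypt-mouth and crypt-base cells have in the members' values was not tested.

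**Figure D4:**
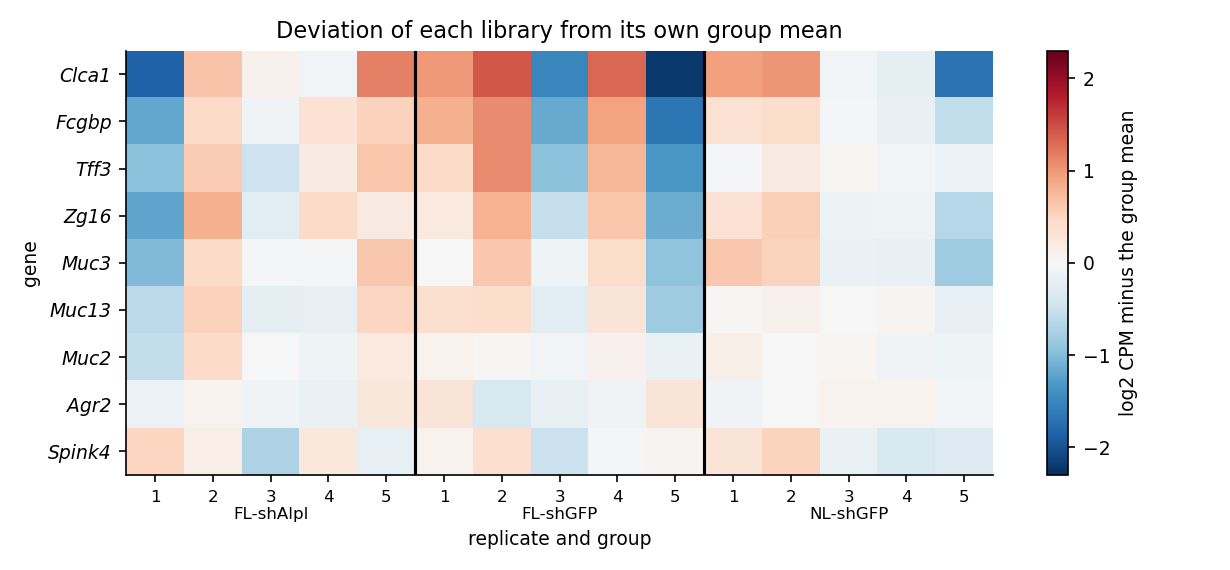
Colours give the log2 CPM of each member in each library minus the mean of the library's own group. FL-shAlpl replicate 1, FL-shGFP replicates 3 and 5 and NL-shGFP replicate 5 are below 0 (blue) in all rows from Clca1 to Muc2, though in some only slightly, as for Muc3 in FL-shGFP replicate 3 (-0.10). Agr2 stays between -0.34 and 0.30, and Spink4 is also low in FL-shGFP replicate 3 (-0.50).

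Goblet markers outside the members did not all move in 1 direction. Of 9, 5 rose and 2 fell in FL-shGFP over NL-shGFP, none rose (0 also at an unadjusted p below 0.05 by edgeR and by DESeq2 and limma) and 4 fell in FL-shAlpl against FL-shGFP, and 1 rose and 3 fell in FL-shAlpl over NL-shGFP. Over all genes tested, 25.1% rose and 21.6% fell in the first of these comparisons. The shares were 18% and 17.9% in the second and 9.31% and 8.12% in the third. The 2 that fell in the first and the 1 that rose in the third are thus near the general shares. The summed CPM of these markers was 870.4 to 1766 in FL-shAlpl, 1278 to 2358 in FL-shGFP and 1885 to 2473 in NL-shGFP. All 9 are counted again in the lists below of transcription factors, granule release and other goblet products, so those lists are not separate from them.

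Transcription factors listed for goblet fate, the secretory programme or the intestinal epithelium more broadly fell more often than they rose in each fatty-liver group against NL-shGFP. Of 15 such transcription factors, 1 rose and 7 fell in FL-shGFP over NL-shGFP (median -0.44), against 25.1% and 21.6% of all genes tested. The factor that rose was Klf4, a regulator of goblet maturation, at 1.26 ± 0.25 (adjusted p = 0.00111 by edgeR), named after its value was seen. Creb3l4 and Creb3l1, membrane-bound activators of secretory genes, fell by 1.09 ± 0.14 (adjusted p = 5.05e-05 by edgeR) and 0.90 ± 0.15 (adjusted p = 0.000319 by edgeR). The 7 that fell also include Cdx2 (-0.69 ± 0.12, adjusted p = 0.000493 by edgeR) and Sox9 (-0.68 ± 0.15, adjusted p = 0.00173 by edgeR), which are not particular to goblet cells. Against FL-shGFP, FL-shAlpl had 3 of the 15 higher and 3 lower (median -0.09). Over all genes tested 18% were higher and 17.9% lower there, so both counts are near the general shares. The 3 that fell were Spdef, the factor of goblet maturation, by 0.76 ± 0.19 (adjusted p = 0.0074 by edgeR), Gfi1, which favours goblet over endocrine fate, by 0.67 ± 0.18 (adjusted p = 0.0121 by edgeR), and Xbp1, an activator of folding genes, by 0.43 ± 0.11 (adjusted p = 0.00627 by edgeR). The 3 that rose were Cdx2, an intestinal identity factor, by 0.38 ± 0.12 (adjusted p = 0.0245 by edgeR), Sox9, a crypt-base factor, by 0.49 ± 0.15 (adjusted p = 0.0179 by edgeR), and Foxa2, by 0.53 ± 0.20 (adjusted p = 0.0476 by edgeR), the first and last named after their values were seen. Sox9 lost its call without FL-shAlpl replicate 2 (0.40, adjusted p = 0.0585 by edgeR). Cdx2 lost it without any single one of FL-shAlpl replicates 2 and 3 or FL-shGFP replicates 1, 2 and 4 (0.31 to 0.36, adjusted p from 0.0531 to 0.0685 by edgeR). Foxa2 lost it without any single one of FL-shAlpl replicates 1 to 4 or FL-shGFP replicates 3, 4 and 5 (0.38 to 0.55, adjusted p from 0.0677 to 0.102 by edgeR). In FL-shAlpl against NL-shGFP none rose (2 at an unadjusted p below 0.05 by edgeR, 0 by DESeq2, 2 by limma) and 7 fell, including Creb3l4 by 1.12 ± 0.14 (adjusted p = 0.000159 by edgeR) and Spdef by 1.20 ± 0.19 (adjusted p = 0.000891 by edgeR). Of all genes tested, 9.31% rose and 8.12% fell in that comparison.

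Genes of mucin folding and the early secretory route fell in both fatty-liver groups against NL-shGFP, as Agr2 did. Among 21, 0 rose and 15 fell in FL-shGFP over NL-shGFP (median -0.44), and 0 rose and 18 fell in FL-shAlpl over NL-shGFP (median -0.54). No gene was higher in either comparison by DESeq2, by limma or at an unadjusted p below 0.05 by edgeR. Lower genes numbered 15 by DESeq2 and 13 by limma in FL-shGFP over NL-shGFP. In FL-shAlpl over NL-shGFP they numbered 18 by DESeq2 but 9 by limma. By edgeR, 21.6% of all genes tested fell in the first of these comparisons and 8.12% in the second. Pdia6, a disulfide isomerase, had 230.8 ± 24.2 CPM in FL-shAlpl, 194.3 ± 28.5 in FL-shGFP and 376.8 ± 16.5 in NL-shGFP. It fell by 0.96 ± 0.11 in FL-shGFP against NL-shGFP (adjusted p = 2.61e-05 by edgeR). Kdelr3, a receptor that returns proteins to the endoplasmic reticulum, fell in all 3 comparisons, by 0.87 ± 0.12 in FL-shGFP against NL-shGFP (adjusted p = 6.3e-05 by edgeR), by 0.44 ± 0.12 in FL-shAlpl against FL-shGFP (adjusted p = 0.00931 by edgeR) and by 1.31 ± 0.12 in FL-shAlpl against NL-shGFP (adjusted p = 1.44e-05 by edgeR). Between FL-shAlpl and FL-shGFP most of the list did not pass, with 1 higher, 4 lower and 16 not past the threshold (median -0.04). Over all genes tested 18% were higher and 17.9% lower there, so the 4 lower are near the general share. The gene that rose was Pdia4, a disulfide isomerase, by 0.39 ± 0.15 (adjusted p = 0.0455 by edgeR), a call that was lost under 15 of 22 alternatives. These included leaving out any single one of FL-shAlpl replicates 1, 3 and 4 or FL-shGFP replicates 1 to 4 (0.31 to 0.42, adjusted p from 0.0555 to 0.117 by edgeR). Besides Kdelr3, those that fell were Galnt12, a mucin-type glycosyltransferase (-0.48 ± 0.10, adjusted p = 0.00192 by edgeR), Bace2, a membrane protease (-0.56 ± 0.16, adjusted p = 0.0126 by edgeR), and Txndc11, a thioredoxin-domain protein (-0.29 ± 0.09, adjusted p = 0.0213 by edgeR). Txndc11 lost its call under 5 of 22 alternatives. These were leaving out FL-shAlpl replicate 4 (-0.25, adjusted p = 0.0563 by edgeR), library totals alone, no filter on low counts and limma on both FPKM scales, with values down to -0.17 (adjusted p = 0.207 by limma on log2(FPKM + 1)).

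More of the enzymes and transporters of O-glycan synthesis rose than fell in FL-shGFP over NL-shGFP, and the genes with 1 row that were called in FL-shAlpl against FL-shGFP fell. Of 30 tested, 15 rose and 5 fell in FL-shGFP over NL-shGFP (median 0.37), 0 rose (also 0 at an unadjusted p below 0.05 by edgeR, by DESeq2 and by limma) and 15 fell in FL-shAlpl against FL-shGFP (median -0.34), and 4 rose and 9 fell in FL-shAlpl over NL-shGFP (median -0.09). In the second of these, DESeq2 called 15 lower and limma 12. Over all genes tested, 25.1% rose and 21.6% fell in the first. The shares were 18% and 17.9% in the second and 9.31% and 8.12% in the third. St6galnac2, a sialyltransferase, is not in these counts because 2 rows carried its symbol, and the split of reads between them is uncertain. The row ENSMUSG00000057286 went the other way from most of the called genes. It fell by 1.14 ± 0.14 in FL-shGFP against NL-shGFP (adjusted p = 2.94e-05 by edgeR) and rose by 0.57 ± 0.14 in FL-shAlpl over FL-shGFP (adjusted p = 0.00529 by edgeR). The row ENSMUSG00000110170 was at -1.01 ± 0.40 in the first of these comparisons (adjusted p = 0.0487 by edgeR). That call was lost under 14 of 22 alternatives, among them leaving out any single one of FL-shGFP replicates 1, 2 and 4 or any NL-shGFP library (-1.08 to -0.82, adjusted p from 0.0565 to 0.12 by edgeR). Its value of 0.15 ± 0.40 in the second did not pass (adjusted p = 0.796 by edgeR). Gcnt1, which starts core 2 branches, had 22.0 ± 8.40 CPM in FL-shAlpl, 112.2 ± 59.0 in FL-shGFP and 11.0 ± 3.72 in NL-shGFP, and rose by 3.35 ± 0.39 in FL-shGFP over NL-shGFP (adjusted p = 2.76e-05 by edgeR). B4galt1, a galactosyltransferase, had 100.4 ± 13.9 CPM in FL-shAlpl, 256.3 ± 69.5 in FL-shGFP and 98.8 ± 8.64 in NL-shGFP. It rose by 1.37 ± 0.16 in FL-shGFP over NL-shGFP (adjusted p = 2.68e-05 by edgeR) and fell by 1.35 ± 0.16 in FL-shAlpl against FL-shGFP (adjusted p = 8.06e-05 by edgeR).

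Gcnt3, the mucin-type branching enzyme, had 137.6 to 235.1 CPM in FL-shAlpl, 330.6 to 446.4 in FL-shGFP and 340.0 to 388.3 in NL-shGFP. Gcnt3 fell by 0.90 ± 0.13 in FL-shAlpl against FL-shGFP (adjusted p = 0.000294 by edgeR) and by 0.87 ± 0.13 against NL-shGFP (adjusted p = 0.000594 by edgeR). Galnt6, which adds the first sugar, fell by 0.67 ± 0.09 (adjusted p = 0.000145 by edgeR) and 0.84 ± 0.09 (adjusted p = 5.45e-05 by edgeR) in the same comparisons. B3gnt6, the core 3 synthase of the colon, was low in both fatty-liver groups, at 22.9 ± 7.25 CPM in FL-shAlpl and 27.8 ± 12.1 in FL-shGFP, against 59.6 ± 1.89 in NL-shGFP. It fell by 1.38 ± 0.27 in FL-shAlpl against NL-shGFP (adjusted p = 0.00309 by edgeR).

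More genes of granule release and of mucus expansion after release rose than fell in FL-shGFP over NL-shGFP, and those called in FL-shAlpl against FL-shGFP fell. Of 28, 17 rose and 4 fell in FL-shGFP over NL-shGFP (median 0.52), 0 rose (2 at an unadjusted p below 0.05 by edgeR, 0 by DESeq2 and by limma) and 13 fell in FL-shAlpl against FL-shGFP (median -0.44), and 5 rose and 2 fell in FL-shAlpl over NL-shGFP (median 0.00). In the second of these, DESeq2 called 15 lower and limma 10. Over all genes tested, 25.1% rose and 21.6% fell in the first. The shares were 18% and 17.9% in the second and 9.31% and 8.12% in the third. Mep1b, the beta subunit of meprin, had 135.0 ± 55.9 CPM in FL-shAlpl, 278.8 ± 141 in FL-shGFP and 35.2 ± 12.7 in NL-shGFP, and rose by 2.98 ± 0.43 in FL-shGFP (adjusted p = 0.000115 by edgeR) and 1.94 ± 0.41 in FL-shAlpl (adjusted p = 0.00554 by edgeR) over NL-shGFP. Sytl2 and Rab27a, which tether granules to the membrane, fell by 0.95 ± 0.18 (adjusted p = 0.00127 by edgeR) and 0.80 ± 0.16 (adjusted p = 0.00167 by edgeR) in FL-shAlpl against FL-shGFP. Vamp2, a granule SNARE, fell by 0.67 ± 0.11 there (adjusted p = 0.000636 by edgeR). Klk1, a kallikrein protease of goblet cells, fell by 1.11 ± 0.23 in FL-shAlpl against NL-shGFP (adjusted p = 0.00409 by edgeR). Slc26a3 is in this list and also among the surface colonocyte markers. It rose by 2.86 ± 0.38 in FL-shGFP over NL-shGFP (adjusted p = 6.26e-05 by edgeR). In FL-shAlpl against FL-shGFP it fell by 1.64 ± 0.36 (adjusted p = 0.00362 by edgeR). Which cells made the RNA of this list was not tested.

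The list of other goblet products held called genes of both directions in all 3 comparisons. It includes Guca2a, which is also among the surface colonocyte markers, and which cells made the RNA of these genes was not tested. Of 24 tested, 11 rose and 5 fell in FL-shGFP over NL-shGFP (median 0.50), 4 rose and 5 fell in FL-shAlpl against FL-shGFP (median -0.17), and 6 rose and 4 fell in FL-shAlpl over NL-shGFP (median 0.31). Of all genes tested, 25.1% rose and 21.6% fell in the first of these comparisons. The shares were 18% and 17.9% in the second and 9.31% and 8.12% in the third. Both counts in the second, and the 5 that fell in the first, are thus near the general shares. Ang4, an antimicrobial ribonuclease of the secretory lineage, ran from 168.9 to 427.4 CPM in FL-shAlpl, 3.95 to 26.9 in FL-shGFP and 16.5 to 48.6 in NL-shGFP. It rose by 4.50 ± 0.55 in FL-shAlpl over FL-shGFP (adjusted p = 0.000104 by edgeR) and by 3.39 ± 0.52 over NL-shGFP (adjusted p = 0.000735 by edgeR). Itln1, a lectin, ran from 15.7 to 114.1 CPM in FL-shAlpl, 0.774 to 3.73 in FL-shGFP and 1.02 to 4.04 in NL-shGFP, and rose by 4.33 ± 0.65 in FL-shAlpl over FL-shGFP (adjusted p = 0.000348 by edgeR). The highest Itln1 value, 114.1 CPM, was that of FL-shAlpl replicate 1, and without that library the log2 fold change was 3.34, a fold change 1.97 times smaller. Ang4 and Itln1 belong to families of near-identical copies, so their counts are uncertain. Reg4, named after its value was seen, had 35.6 to 569.3 CPM in FL-shAlpl, 5.58 to 54.7 in FL-shGFP and 264.0 to 985.5 in NL-shGFP. It fell by 4.97 ± 0.85 in FL-shGFP against NL-shGFP (adjusted p = 0.000412 by edgeR). In FL-shAlpl over FL-shGFP it rose by 3.20 ± 0.79 (adjusted p = 0.00684 by edgeR). How these Reg4 values depend on the processing was not examined.

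Clca4b, a relative of Clca1 in the same gene family, had 486.9 ± 235 CPM in FL-shAlpl, 4304 ± 2497 in FL-shGFP and 291.9 ± 132 in NL-shGFP, and fell by 3.14 ± 0.54 in FL-shAlpl against FL-shGFP (adjusted p = 0.000882 by edgeR), with no overlap. The Clca1 value there, given above, did not pass, and the difference between the genes was not tested. Wfdc2, a secreted protease inhibitor, was highest in FL-shAlpl, at 151.4 ± 38.1 CPM, with 71.4 ± 22.6 in FL-shGFP and 25.5 ± 1.85 in NL-shGFP. It rose by 1.08 ± 0.20 in FL-shAlpl over FL-shGFP (adjusted p = 0.00143 by edgeR) and by 1.48 ± 0.21 in FL-shGFP over NL-shGFP (adjusted p = 8.49e-05 by edgeR). Retnlb, a resistin-like peptide of goblet cells, had 557.7 ± 204 CPM in FL-shAlpl, 628.6 ± 171 in FL-shGFP and 1010 ± 127 in NL-shGFP, and its value of -0.17 ± 0.23 between FL-shAlpl and FL-shGFP did not pass (adjusted p = 0.587 by edgeR).

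Of the remaining mucin and glycocalyx genes, those called in FL-shGFP over NL-shGFP rose and those called in FL-shAlpl against FL-shGFP fell. Of 20 listed, 16 were in the table and 11 were tested. In FL-shGFP over NL-shGFP 6 rose and none fell (median 0.67; 1 lower at an unadjusted p below 0.05 by edgeR, 0 by DESeq2 and by limma). In FL-shAlpl against FL-shGFP none rose and 6 fell (median -0.86; 0 higher at an unadjusted p below 0.05 by edgeR, by DESeq2 and by limma), and in FL-shAlpl over NL-shGFP 3 rose and 3 fell (median 0.46). Over all genes tested, 25.1% rose and 21.6% fell in FL-shGFP over NL-shGFP. The shares were 18% and 17.9% in FL-shAlpl against FL-shGFP and 9.31% and 8.12% in FL-shAlpl over NL-shGFP. Muc1, a transmembrane mucin, had 19.7 ± 10.4 CPM in FL-shAlpl, 51.5 ± 22.6 in FL-shGFP and 3.57 ± 0.507 in NL-shGFP. It rose by 3.85 ± 0.42 in FL-shGFP over NL-shGFP (adjusted p = 1.87e-05 by edgeR) and fell by 1.39 ± 0.37 in FL-shAlpl against FL-shGFP (adjusted p = 0.0112 by edgeR). Cdhr2, a protocadherin that links microvilli, rose by 1.57 ± 0.27 (adjusted p = 0.000385 by edgeR) and fell by 1.06 ± 0.27 (adjusted p = 0.00769 by edgeR) in those comparisons. Of the 6 that rose, Ceacam1, Ceacam20, Cdhr2 and Cdhr5 are also in the list of surface colonocyte markers.

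**Figure D5:**
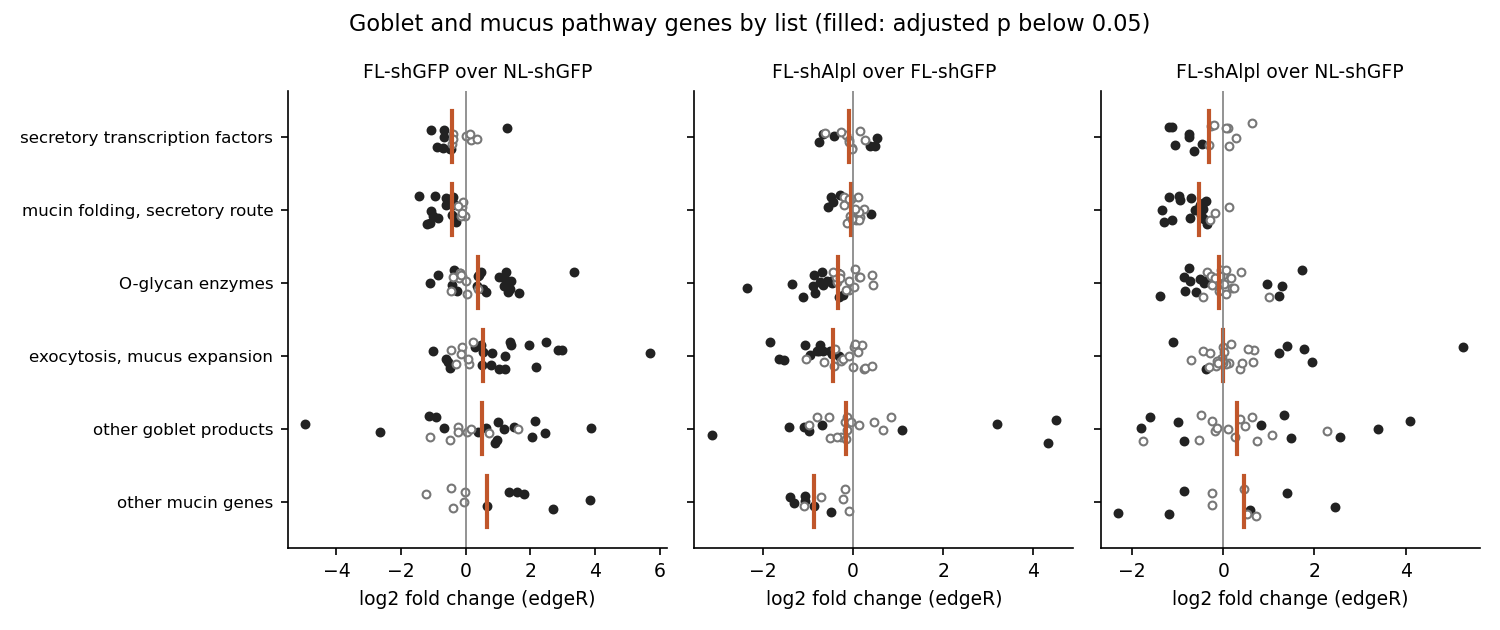
Each point is the log2 fold change of 1 tested gene in 6 lists of goblet and mucus genes, with filled points past an adjusted p of 0.05 and a coloured bar at the list median. The folding list lies to the left of 0 in the left panel (median -0.44) and, but for Ern1 at 0.12, in the right panel (median -0.54), and is centred near 0 (-0.04) in the middle panel.

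The genes most like Muc2, Agr2, Zg16 and Muc3 were sought by the Pearson correlation of log2 CPM over the 15 libraries among 14520 genes, as a description. The 15 points share 3 groups, so a high value follows partly from the same differences between groups. For Muc2 they were Bace2 (0.961), a membrane protease, Gpr20 (0.954), Slc17a9 (0.954), a vesicular nucleotide transporter, Ptprn2 (0.950), a secretory-granule phosphatase-like protein, and Galnt12 (0.944), a mucin-type glycosyltransferase. For Agr2 they were Chrm1 (0.986), a muscarinic receptor, Slc12a8 (0.982), Creb3l4 (0.961), AI463229 (0.960) and Car8 (0.958). Zg16 was matched by P2ry2 (0.990), a nucleotide receptor, Slc25a20 (0.982), the mitochondrial carnitine carrier, Gprc5a (0.982), Lypd8 (0.981), a secreted protein that binds flagella, and Cyp2d12 (0.980). Muc3 was matched by Lamb3 (0.986), a laminin chain, Cyp2d34 (0.986), Lypd8 (0.984), Mep1b (0.983) and Slc13a2 (0.980). Lypd8 was the gene named for both Zg16 and Muc3, and the lists of Muc2 and Agr2 had no gene in common with each other or with those of Zg16 and Muc3.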

How the data were processed

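Colonic crypt RNA was measured in 15 libraries, grouped by GEO's labels into FL-shAlpl, FL-shGFP and NL-shGFP (5 each). The authors deposited a table of whole-number read counts per gene and a table of FPKM. The labels' protocols describe column extraction and mRNA enrichment before cDNA synthesis. HISAT2 is the aligner named, per the submitters' processing notes. Which counter, strand setting, genome build and annotation followed is not given in the sources used here. Deposited FPKM were the deposited counts over a gene length and the library total, within a relative spread of 1.4e-06. Of counts from 1 to 12, 72.4 to 77.2% per library were even, so small counts may hold fewer molecules than they show. Symbols matched 32241 of 32939 gene IDs.

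Each comparison was tested two-sided in 1 edgeR 4.0.16 quasi-likelihood fit (R 4.3.3, TMM factors, 12 residual degrees of freedom) to the 17404 genes that passed filterByExpr, with Benjamini-Hochberg adjustment over all of them. All 9 members in the table passed that filter. The common biological coefficient of variation was 30.2%, so the spread between samples and not depth limits the members' precision. CPM are TMM-scaled, ± beside CPM, FPKM or shares is the SD and ± beside a log2 fold change its standard error. Log2 CPM used a prior count of 2. Libraries were to be summed where their halved counts differed by less than sampling noise (a median chi-square of at most 0.5). None did: the closest, NL-shGFP replicates 3 and 4, had 0.809, and summing them was an alternative. Next were NL-shGFP replicates 1 and 2 at 1.58, which a further alternative summed as well. Pairs of NL-shGFP replicate 5 with the others of its group ran from 8.408 to 9.179.

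The members and lists were chosen with earlier results of these data known. All members are named. Of each list and comparison, the text draws on up to 4 called genes with the smallest p and up to 2 abundant genes that did not pass, and prints part of them. The 5 genes most correlated with 4 members are given. The alternatives were RLE factors, totals alone, DESeq2 1.42.0, all genes with a count, a floor of 1 CPM in 4 samples, limma 3.58.1 on log2(FPKM + 1) and log2(FPKM + 0.1), only the groups compared, a replicate block, no mitochondrially encoded genes, summed NL-shGFP libraries and each library left out. The code was tested on simulated data. Figures used Python 3.11.15 and matplotlib 3.10.9.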

Additional observations from a re-analysis of the deposited data

Results flagged for a closer look

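Muc3a in FL-shAlpl replicate 1 was the lowest of its group at 57.62 CPM. The next library was at 82.17 CPM, a gap of 0.795 of the group's range. That library was also the lowest of its group for Muc3 and 6 of the other members.

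Alpl in NL-shGFP replicate 2 was the highest of its group at 0.04986 CPM, from 2 counts, while the other 4 libraries had 0. With 4 values of 0, any count in the remaining library is flagged. Chance marks about 1 in 20 groups of spread values, a rate that does not hold for this Alpl group.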

How the results depend on the processing

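Of the member log2 fold changes under all alternatives, 564 kept their direction and side of the threshold, 17 lost the call, 2 gained it and 11 changed sign. All sign changes were of 2 values that had not passed. Clca1 in FL-shAlpl over FL-shGFP (-0.07 as reported, -0.40 to 0.229 with libraries left out) was 0.044 with totals alone, 0.354 and 0.355 with limma on log2(FPKM + 1) and log2(FPKM + 0.1), and 0.404 with the replicate block. It was 0.191 and 0.013 without FL-shAlpl replicates 1 and 4, and 0.040, 0.229 and 0.171 without FL-shGFP replicates 1, 2 and 4. Spink4 there (-0.10, ranging from -0.23 to 0.042 with libraries left out) was 0.042 without FL-shAlpl replicate 3 and 0.003 without FL-shGFP replicate 2. ENSMUSG00000110170, a row of St6galnac2 that had not passed in FL-shAlpl over FL-shGFP (0.15), ran from -0.046 to 0.433 with libraries left out. Muc3 in FL-shAlpl against FL-shGFP lost its call under 14 of 22 alternatives. With NL-shGFP replicates 3 and 4, and 1 and 2, summed, members higher in FL-shAlpl over NL-shGFP numbered 3 in place of 6 (Fcgbp, Tff3 and Muc13 at edgeR adjusted p of 0.0597, 0.0759 and 0.0529), and genes changed in that comparison numbered 1340 in place of 3035. Leaving out each library, that count ran from 1979 (without FL-shAlpl replicate 2) to 3523, members higher stayed at 6 and members lower at 3. In FL-shGFP over NL-shGFP genes changed ran from 6841 to 8816 and in FL-shAlpl over FL-shGFP from 4635 to 7158, where members lower ran from 3 to 6 (without FL-shGFP replicate 5, which added Fcgbp and Tff3). Totals alone moved the median of all genes in FL-shAlpl over NL-shGFP to 0.189 from 0.052 and the higher share of calls to 75% from 53.4%, and in FL-shGFP over NL-shGFP to 65.8% from 53.8%. The cause of these shifts was not tested.

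Replicate numbers showed no clear pairing of the samples. Deviations from group means correlated at a median of 0.066 (-0.353 to 0.326) over 15 pairs of libraries with the same number. Over pairs with different numbers the median was -0.012 (-0.323 to 0.381). These values share libraries and cannot exclude a partial pairing or a shared batch. With the replicate block, genes changed numbered 7295, 5074 and 2457 in FL-shGFP over NL-shGFP, FL-shAlpl over FL-shGFP and FL-shAlpl over NL-shGFP, members higher 6, 0 and 6, and members lower 2, 3 and 3. Depth does not limit the members, which had at least 3904 counts in each library.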
